A study of Mus musculus with 4 samples.

Results

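The 10 genes described here encode parts of the contractile machinery of smooth muscle: the actins Actg2 and Acta2, the myosin heavy chain Myh11, the actin-associated proteins Cnn1, Tagln, Smtn and Lmod1, the intermediate filament desmin (Des), the calcium store protein Casq2 and the transcriptional coactivator Myocd. They were chosen by name as smooth muscle genes, with earlier results of these data known. All spots that carry these names in the files were taken. All 10 were measured, among 22162 genes in all, by 11 probes on 29 spots per array. Smtn had 2 probes, and Acta2 and Des each had 1 probe printed on 10 spots. All 11 probes were well above background on all 4 arrays, and 0 of their spots were saturated or flagged as outliers.

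The colon of mice without Pla2g10, which encodes the group X secreted phospholipase A2 (it cuts phospholipids into fatty acids and lysophospholipids), was compared with that of wild-type mice. Dextran sulfate sodium (DSS), a polymer that damages the epithelium and causes colitis, was given at 1% (w/v) in drinking water, and the large intestine was taken at day 7. The 4 groups were X-KO mice (Pla2g10 -/-) with DSS (KO DSS), X-KO mice without it (KO naive), wild-type mice with DSS (WT DSS) and wild-type mice without it (WT naive). All were C57BL/6 mice, taken here as 9-week-old males because the age and sex tags hold each other's values, while the growth protocol gives an age of 8 weeks. The sources used here do not give how the deletion was made or whether it acts in all cells. Each group was 1 single-colour Agilent array, hybridised with a pool of colon RNA of 3 mice, so no difference between single groups has a replicate check.

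Smooth muscle shortens when calcium and calmodulin activate myosin light chain kinase and the smooth muscle myosin pulls on actin filaments. Calponin, transgelin, smoothelin and leiomodin bind these filaments, desmin ties the cell's contractile units together, and much of the set is driven by serum response factor (SRF), with its coactivator myocardin, through the CArG box in promoters. In the colon most smooth muscle lies in the outer muscle coat, with a thin layer under the mucosa.

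A signal of 1 below equals the 75th percentile of its array (the relative signal), and each ratio is given as log2. Between 67.7% and 70.4% of spots were well above background, and all 4 arrays lay on 1 slide with 1 scan date. Repeat spots of a probe had a median SD of 0.0574 to 0.0635 (log2), a measure of array noise that says nothing of the spread between animals. A difference between 2 single spots smaller than 0.0899 is called within spot noise below. This limit is about 1 SD of such a difference at the largest of these SDs, so array noise alone can exceed it. The same limit is used for a difference of 2 ratios, which rests on 4 arrays and has a larger spread. The scanner software's own error for the spots of the 10 genes was larger too, at 10% to 11.2% of the signal. Pla2g10 itself had a relative signal of 0.997 in KO DSS and 1.70 in KO naive, against 19.1 in WT DSS and 15.9 in WT naive. It was thus lower in both pools labelled KO than in those labelled WT, though still near or above the 75th percentile. Because these are whole colons, fewer smooth muscle cells and less RNA per cell cannot be told apart.

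Relative to naive mice of their genotype, all 10 genes were lower in KO DSS and 8 of 10 were lower in WT DSS, where Tagln and Cnn1 were not. Myh11 and Casq2 were more than 2-fold lower with DSS in both genotypes. Actg2 and Des passed 2-fold in the KO mice and not in the wild-type mice. In KO this did not hold under other scalings. Actg2 stood at -0.997 with median scaling and -0.941 with quantile normalization, and Des at -0.942 and -0.994. Casq2 in WT did not stay past 2-fold either, at -0.929 with median scaling and -0.952 with quantile normalization. Myh11 passed 2-fold in both genotypes under each scaling tried. All 10 genes had their lowest value in KO DSS, which held for 39.2% of all genes. Of the 10, 8 had their highest value in WT naive (23.4% of all genes), and the same 8 were both lowest in KO DSS and highest in WT naive (13.4% of all genes). The exceptions were Tagln, highest in WT DSS, and Cnn1, highest in KO naive. With quantile normalization all 10 were highest in WT naive, and with median scaling 7.

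Myh11, the heavy chain of the smooth muscle myosin motor, had a relative signal of 2.78 in KO DSS, against 7.05 in KO naive. In wild-type mice it was 3.37 in WT DSS, against 8.09 in WT naive. Both DSS pools were low and both naive pools high, and the genotypes lay close together under either condition. The DSS log2 ratios were -1.34 in KO and -1.26 in WT, so that 39.5% of the naive signal was left in KO and 41.6% in WT. Its probe (chr16:14202190-14202249, minus strand, mm9) is shown because Myh11 had the lowest DSS ratio of the 10 genes in both genotypes, and because it lies in coding sequence of the myosin tail:
Myh11 probe: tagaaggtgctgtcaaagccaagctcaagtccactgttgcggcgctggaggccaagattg

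Actg2, the actin found mainly in the muscle of the gut and other hollow organs, showed another pattern. Its relative signal was 36.4 in KO DSS, against 76.3 in KO naive. It was 72.1 in WT DSS, against 78.3 in WT naive. The KO DSS pool alone was low, and the other 3 pools lay near each other. The DSS log2 ratio was -1.07 in KO and -0.12 in WT, and KO DSS stood at a log2 ratio of -0.99 to WT DSS.

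Acta2, the actin that smooth muscle shares with blood vessel walls, pericytes and activated fibroblasts, had a relative signal of 40.5 in KO DSS, against 60.5 in KO naive. It was 57.9 in WT DSS, against 66.8 in WT naive. Its 10 repeat spots spanned 37.2 to 42.7 in KO DSS and 55.9 to 66.2 in KO naive, against 53.5 to 64.8 in WT DSS and 61.0 to 72.5 in WT naive. The KO DSS spots lay below every spot of the other arrays, whose ranges overlapped. These spots share 1 RNA pool per array and are not replicates of a group. The DSS log2 ratio was -0.58 in KO and -0.21 in WT. The Actg2 and Acta2 probes (chr6:83462904-83462963 and chr19:34316060-34316119, both minus strand, mm9) share no run longer than 6 bases.

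**Figure D1:**
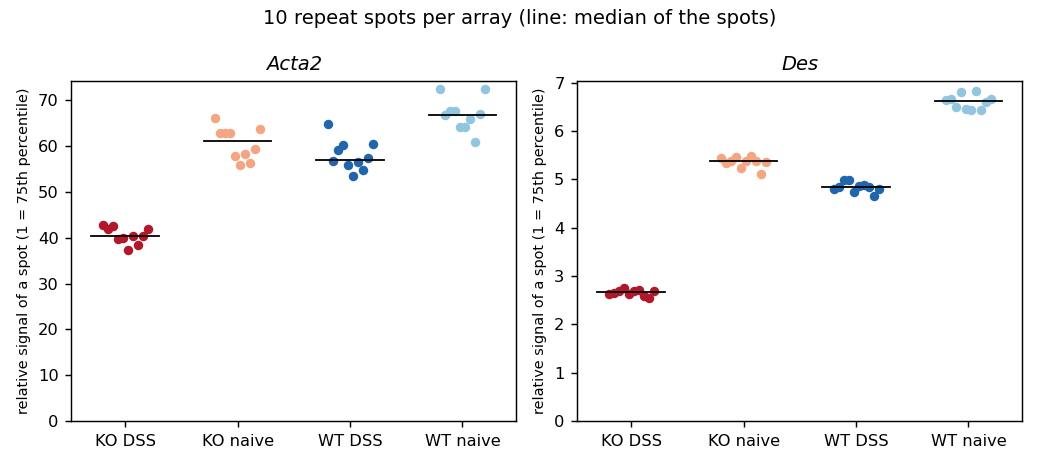
Relative signal of each of the 10 repeat spots of the Acta2 and Des probes on each array (points, vertical axis, 75th percentile of the array = 1), by group along the horizontal axis, with a line at the median of the spots. The KO DSS spots of Acta2 end at 42.7, below the lowest spot of any other array, and the 4 arrays' Des spots do not overlap.

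Des, the intermediate filament of muscle cells (probe at chr1:75363404-75363629, plus strand, mm9), separated all 4 pools beyond the spread of its repeat spots. Its relative signal was 2.65 in KO DSS, against 5.36 in KO naive. It was 4.84 in WT DSS, against 6.60 in WT naive. The highest Des spot in KO DSS was 2.74 and the lowest spot of any other array was 4.66. The DSS log2 ratio was -1.01 in KO and -0.45 in WT, and the ratio of KO naive to WT naive was -0.30.

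Cnn1 (calponin) and Tagln (transgelin) bind actin filaments in differentiated smooth muscle. Their probes lie at chr9:21913058-21913117 (plus strand) and chr9:45738097-45738156 (minus strand) of mm9. Cnn1 had a relative signal of 39.2 in KO DSS and 66.6 in KO naive, and 65.9 in WT DSS and 64.2 in WT naive. Tagln had 53.1 in KO DSS and 75.8 in KO naive, and 81.7 in WT DSS and 74.3 in WT naive. In both genes KO DSS was low, and the other pools lay close together for Cnn1. Their log2 DSS ratios were -0.76 (Cnn1) and -0.51 (Tagln) in KO, and 0.037 and 0.14 in WT. The sign of the wild-type ratios turned with quantile normalization, to -0.16 for Cnn1 and -0.08 for Tagln.

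Smtn (smoothelin) and Lmod1 (leiomodin, which starts new actin filaments in smooth muscle) are also bound to actin. The brighter Smtn probe (chr11:3417530-3417589, minus strand, mm9) had a relative signal of 10.5 in KO DSS and 19.9 in KO naive, and 15.7 in WT DSS and 21.3 in WT naive. The dimmer one (chr11:3420834-3420893, minus strand, mm9) had 0.664 in KO DSS and 0.741 in KO naive, and 0.646 in WT DSS and 0.777 in WT naive. The 2 probes did not give the same picture: the first had a DSS log2 ratio of -0.93 in KO and -0.44 in WT, and the second -0.16 and -0.27. The dimmer probe was the only one of the 11 with its lowest value in WT DSS, and it is shown for that reason, with coding sequence near the protein's C-terminal end:
Smtn, dimmer probe: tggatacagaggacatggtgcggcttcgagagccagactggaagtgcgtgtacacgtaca

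Lmod1 (probe at chr1:137264581-137264640, plus strand, mm9) had a relative signal of 0.137 in KO DSS and 0.185 in KO naive, and 0.138 in WT DSS and 0.216 in WT naive. Its DSS log2 ratio was -0.43 in KO and -0.65 in WT, the deeper ratio being that of wild-type mice. With quantile normalization this held for Myh11 too (a difference of 0.039), and for no other of the 10 genes. The 2 DSS pools differed by less than spot noise.

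Casq2, a calsequestrin that binds calcium in the sarcoplasmic reticulum and is best known from heart muscle (probe at chr3:101949827-101949884, plus strand, mm9), had a relative signal of 0.0776 in KO DSS and 0.171 in KO naive. It was 0.0999 in WT DSS and 0.210 in WT naive. Like Myh11 it was low in both DSS pools, with log2 ratios of -1.14 in KO and -1.07 in WT. Myocd (myocardin), the SRF coactivator (probe at chr11:64991930-64991989, minus strand, mm9), had 0.202 in KO DSS and 0.261 in KO naive, and 0.226 in WT DSS and 0.290 in WT naive. Its DSS log2 ratios were -0.37 in KO and -0.36 in WT, a difference within spot noise, as it was for Casq2 and Myh11.

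**Figure D2:**
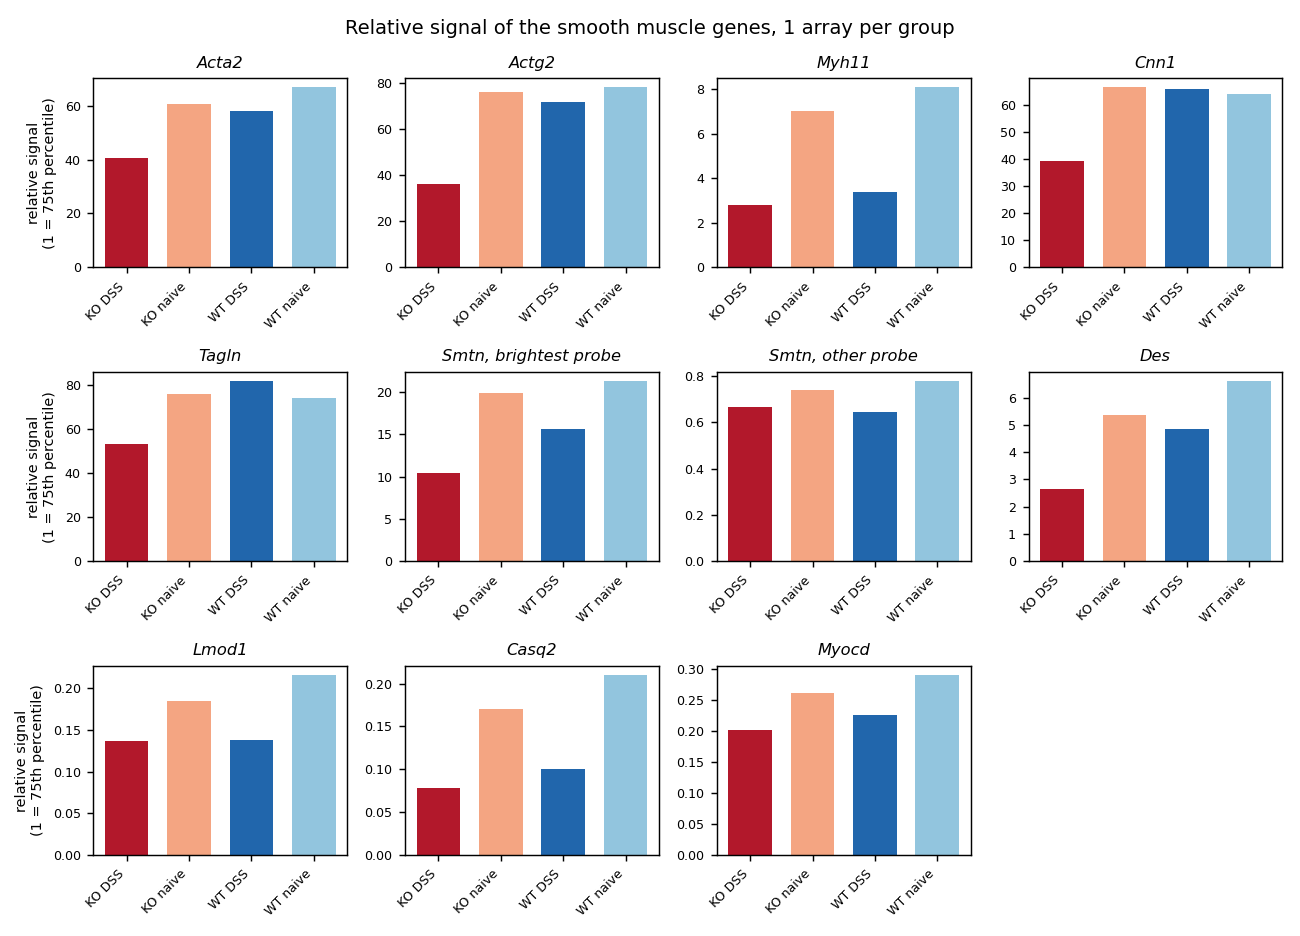
Relative signal (linear vertical axis from 0, 75th percentile of the array = 1) of the 11 probes, 1 panel per probe, with 1 bar per pool of 3 colons and no error bars. KO DSS is the lowest of the 4 bars in 10 panels, and the dimmer Smtn probe is lowest in WT DSS.

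In KO mice, DSS over naive gave 4 of 10 genes at least 2-fold lower (Actg2, Casq2, Des and Myh11), against 4.99% of all genes, and 0 at least 2-fold higher, against 5.67%. All 10 ratios were below 0, as were 61.8% of those of all genes, and each differed from 0 by more than spot noise. The median ratio of the 10 genes was -0.85, beside -0.13 over all genes. In wild-type mice 2 of 10 genes (Casq2 and Myh11) were at least 2-fold lower, against 5.22% of all genes, and 0 were at least 2-fold higher, against 3.4%. There 8 of 10 ratios were below 0 (52.1% of all genes), with a median of -0.40, beside -0.02 over all genes. The 2 genes past 2-fold in both genotypes compare with 1.6% of all genes. The counts past 2-fold depended on the scaling: they were 2 in KO and 1 in WT after quantile normalization, and Myh11 passed in both genotypes under each scaling tried.

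The mean DSS effect over both genotypes was tested with limma, which here has 1 residual degree of freedom. It called 0 of 22162 genes at a Benjamini-Hochberg adjusted p under 0.05, so none of the 10 genes passed, while 4090 genes had an unadjusted p under 0.05. At an unadjusted p under 0.05 it held 5 of the 10 genes as lower (Casq2, Des, Lmod1, Myh11 and Smtn), against 11.9% of all genes, and 0 as higher, against 6.51%. With median scaling 2 of the 10 (Casq2 and Myh11) stayed under that level, and the split over all genes was 1757 lower and 1882 higher, beside 2648 lower and 1442 higher in the scaling used here. Myh11 had a mean log2 DSS change of -1.30 ± 0.159 (SE) with an adjusted p of 0.208 in limma, and this p ran from 0.00492 to 0.234 over the alternatives. Casq2 had -1.11 ± 0.159 (SE) with an adjusted limma p of 0.208, and from 0.0262 to 0.234 over the alternatives. The adjusted limma p of both genes was under 0.05 only in 2 fits. These kept only genes well above background on all 4 arrays, or used a trended and robust variance. In the other 8 genes the adjusted limma p lay between 0.260 and 0.684. Actg2, with unlike ratios in the genotypes, had -0.59 ± 0.31 (SE), since such unlikeness enters the error of this fit.

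**Figure D3:**
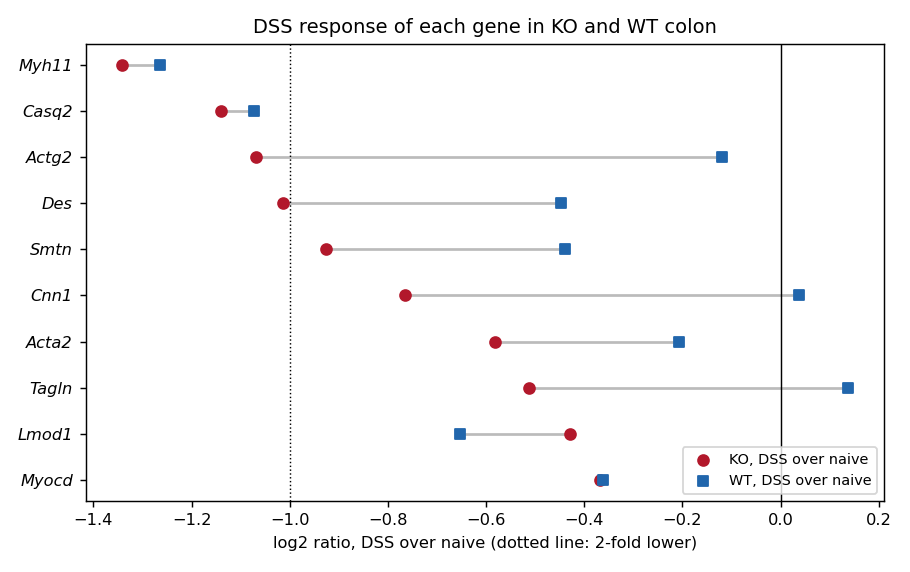
Log2 DSS over naive ratio of the 10 genes, in KO mice and in WT mice, from 1 array per group and therefore without error bars. The dotted line marks 2-fold lower. In the scaling used here Myh11 and Casq2 lie past a 2-fold difference in both genotypes, while Actg2 stands at -1.07 in KO and -0.12 in WT. Casq2 in WT does not pass it with median scaling or quantile normalization.

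Without DSS, KO and WT pools differed little in these genes. KO naive over WT naive gave 0 of 10 genes 2-fold lower (1.04% of all genes) and 0 2-fold higher (1.13%). The lowest ratios, both -0.30, were those of Des and Casq2. The median was -0.15, beside 0.02 over all genes, 8 of 10 ratios were below 0 (46.4% of all genes), and 3 of 10 were within spot noise.

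With DSS, all 10 genes were lower in KO than in WT, which held for 60.7% of all genes, with 1 of 10 (Lmod1) within spot noise. None was 2-fold lower (2.19% of all genes) or 2-fold higher (5.09%), and Actg2 came closest, at a log2 ratio of -0.99, followed by Des at -0.87 and Cnn1 at -0.75. The median was -0.55, beside -0.09 over all genes. It was -0.35 after normexp background correction with quantile normalization and -0.64 after median scaling, where Actg2 passed 2-fold at -1.08. The mean genotype effect over both treatments, tested with limma, gave an adjusted p of 0.999 for each of the 10 genes. It called 0 genes in all, and 0 of the 10 at an unadjusted p under 0.05, against 1.27% of all genes as lower and 2.56% as higher in KO.

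The difference of the DSS ratios, KO minus WT, was below 0 in 9 of 10 genes (59.4% of all genes), and it cannot be tested with 1 array per group. It was -0.95 in Actg2, -0.80 in Cnn1 and -0.65 in Tagln, and within spot noise in Casq2, Myh11 and Myocd. Its median was -0.43, beside -0.10 over all genes. The 10 reference genes for general cell functions had a median difference of the same size, -0.45. After quantile normalization the medians were -0.18 in the 10 smooth muscle genes and -0.15 in the reference genes. For Actg2 the difference was -0.59 after quantile normalization and for Cnn1 -0.51, while Tagln (-0.29) then lay nearer to 0 than Des (-0.42), and Acta2 stood at -0.041.

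Markers of other tissues moved beside these genes. Of 14 skeletal muscle markers, 11 were measured (Myh4, Mylpf and Casq1 were not well above background on any array), and their summed relative signal was 2.76 in KO DSS and 8.34 in KO naive, and 4.77 in WT DSS and 6.19 in WT naive. The DSS ratio was below 0 in all 11 of them in KO and in 10 of 11 in WT, with medians of -1.76 and -0.33. Desmin and calsequestrin are made in striated muscle too, and without Des and Casq2 the median DSS ratio of the other 8 genes was -0.67 in KO and -0.28 in WT. Of 8 heart muscle markers 7 were measured, with sums of 1.11 in KO DSS and 2.43 in KO naive, and 1.71 in WT DSS and 2.03 in WT naive.

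Fibroblast markers and most leukocyte markers stood higher in KO DSS than in KO naive. All 10 fibroblast markers were higher in KO DSS than in KO naive (median 1.14), and 5 of 10 were lower in WT DSS than in WT naive (median 0.06, with a sign that turns with the scaling). Their summed signal was 159 in KO DSS and 70.8 in KO naive, and 93.7 in WT DSS and 88.5 in WT naive. The summed signal of 10 leukocyte markers was 67.1 in KO DSS and 24.6 in KO naive, and 35.0 in WT DSS and 23.3 in WT naive. Of these 10, 8 were higher in KO DSS than in KO naive and 2 lower (Cd3e and Itgam, both -0.19). Of the 10, the neutrophil genes S100a8 (10.9 in KO DSS and 0.0503 in KO naive) and S100a9 (22.5 in KO DSS and 0.254 in KO naive) differed most between these pools. In wild-type mice S100a8 was 1.86 in WT DSS and 0.0129 in WT naive, where it was not well above background. S100a9 was 4.35 in WT DSS and 0.0600 in WT naive. There too, 2 of the 10 leukocyte markers were lower with DSS. Epithelial markers (12 genes) summed to 488 in KO DSS and 657 in KO naive, and 602 in WT DSS and 559 in WT naive. The part of these shifts, and of the piece of colon that was taken, in the lower smooth muscle signals was not tested.

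Other parts of the contractile apparatus were also lower with DSS, by medians that lay nearer to 0 than that of the 10 genes in KO and about level with it in WT, a difference that was not tested. Of 33 other filament and cytoskeleton genes, 32 were lower in KO DSS than in KO naive and 28 were lower in WT DSS than in WT naive, with medians of -0.53 and -0.39. At 2-fold, 4 were lower in KO (Dmd, Fhl1, Synm and Ppp1r12b) and 4 in WT (Dmd, Fhl1, Itga8 and Ppp1r12b), with 0 higher in either. Over all genes, 4.99% were 2-fold lower in KO and 5.22% in WT. Limma called 0 of the 33 after adjustment and 10 as lower at an unadjusted p under 0.05, against 11.9% of all genes. Dmd (dystrophin, which links the cytoskeleton to the matrix) had DSS ratios of -1.17 in KO and -1.53 in WT. Synm (synemin, an intermediate filament partner of desmin) had -1.57 in KO and -0.84 in WT. Fhl1 had -1.25 in KO and -1.02 in WT, and Itga8 (integrin alpha 8, a matrix receptor) had -0.63 in KO and -1.07 in WT. Tpm2, a tropomyosin along the actin filament, had -0.78 in KO and -0.22 in WT. On the other side stood Myl12a, a myosin light chain, with 0.36 in KO and 0.49 in WT, and Myl6, another one, with -0.25 in KO and 0.40 in WT. Ppp1r12b is named after its values were seen, since it was not well above background in WT DSS.

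Among 20 genes for calcium handling, channels and cyclic GMP signalling, the median DSS ratio was -0.11 in KO, where its sign turns with the scaling, and -0.36 in WT. At 2-fold, 1 gene was lower in KO (Slc8a1, the sodium-calcium exchanger) and 2 were lower in WT (the ryanodine receptors Ryr2 and Ryr3). Over all genes, 4.99% were 2-fold lower in KO and 5.22% in WT. Limma held 4 of the 20 as lower (11.9% of all genes) and 0 as higher (6.51%) at an unadjusted p under 0.05. After adjustment it held 0. Slc8a1 had -1.15 in KO and -0.35 in WT, while Ryr3 had -0.80 in KO and -1.40 in WT, and Ryr2 -0.13 in KO and -1.18 in WT. Pln (phospholamban, which restrains the calcium pump of the store) had -0.62 in KO and -0.78 in WT, and Itpr1, a calcium release channel, -0.71 in KO and -0.65 in WT. The guanylate cyclase subunits, which answer nitric oxide, stood higher in KO DSS, with Gucy1b1 at 0.65 in KO and -0.24 in WT, and Gucy1a1 at 0.40 in KO and -0.15 in WT. Trpc6, a cation channel, had 0.85 in KO and 0.09 in WT. For KO DSS over WT DSS the median of these 20 genes was 0.25, with 7 of 20 below 0. The 10 contractile genes had a median of -0.55 there, with 10 of 10 below 0. The median difference of the DSS ratios, KO minus WT, was 0.50 in the 20 genes, beside -0.43 in the 10. Neither median of the 20 genes changed sign with the scaling.

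The 13 genes of SRF and myocardin control had median DSS ratios of -0.42 in KO and -0.21 in WT, and 0 of them passed 2-fold. Limma held 2 of the 13 as lower at an unadjusted p under 0.05, against 11.9% of all genes, and 0 after adjustment. Mrtfb, a myocardin relative, had -0.53 in KO and -0.59 in WT. Mef2d, a muscle transcription factor, had -0.70 in KO and -0.43 in WT. Klf4, known to repress smooth muscle genes in cultured vascular cells and abundant in colon epithelium, had -0.87 in KO and -0.17 in WT. Foxf1, a factor of gut mesenchyme, had 0.63 in KO and 0.12 in WT.

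Of 12 contraction receptors 11 were measured, with median DSS ratios of 0.33 in KO and 0.26 in WT. At 2-fold, 1 was lower (Chrm3) and 4 were higher (Ednra, Ednrb, Ptgfr and Tacr1) in KO, and 0 in either direction in WT. Over all genes in KO, 4.99% were 2-fold lower and 5.67% 2-fold higher. Limma held 2 of the 11 as lower (11.9% of all genes) and 1 as higher (6.51%) at an unadjusted p under 0.05. After adjustment it held 0. The muscarinic receptors through which acetylcholine contracts the gut were lower: Chrm3 had -1.28 in KO and -0.65 in WT, and Chrm2 -0.85 in KO and -0.86 in WT. The substance P receptor Tacr1 had 1.77 in KO and 0.64 in WT, and the endothelin receptor Ednra 1.65 in KO and 0.38 in WT. Both are also made by other cells of the gut wall.

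**Figure D4:**
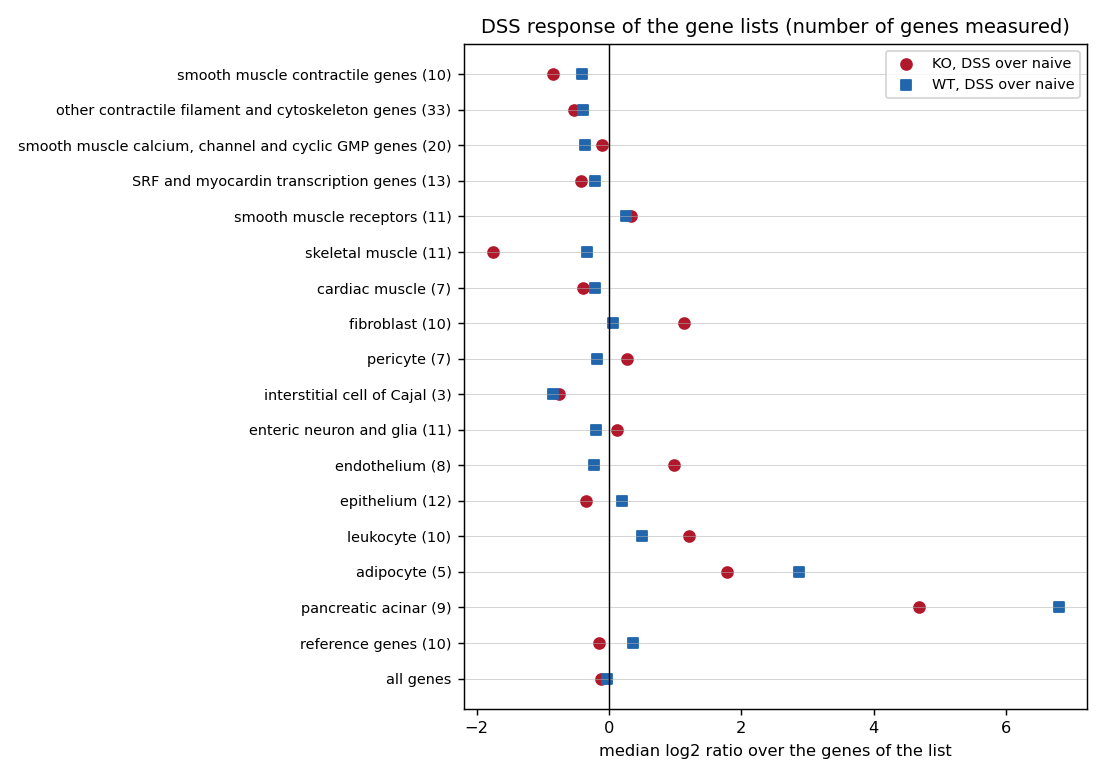
Median log2 DSS over naive ratio (horizontal axis) of each gene list, in KO mice (circles) and in WT mice (squares), with the number of genes measured. The 10 smooth muscle contractile genes lie at -0.85 in KO and -0.40 in WT, the other filament genes at -0.53 and -0.39, and the fibroblast markers at 1.14 and 0.06.

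The median profile of the 10 genes, centred on each gene's mean over the 4 arrays, was -0.59 in KO DSS and 0.21 in KO naive, and 0.0051 in WT DSS and 0.35 in WT naive. Of the 19322 genes that every array measured well above background, the one nearest to it by Euclidean distance over these 4 arrays was Mylk (distance 0.0315), which encodes myosin light chain kinase. Mylk had a relative signal of 1.5 in KO DSS and 2.68 in KO naive, and 2.29 in WT DSS and 2.88 in WT naive. The next were Gm13446 (0.0419), Cibar2 (0.0481), Thnsl2 (0.0486), Spa17 (0.0528), Ubxn10 (0.0586), Fhdc1 (0.0658), AI480461 (0.0714), Gstm1 (0.073) and Shisa2 (0.0742). With 4 arrays many profiles lie near each other: 41 genes lay at least as near as Smtn, the nearest of the 10 genes (0.114), and 10785 at least as near as Myh11 (0.764).

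Promoter sequences from RefSeq (GRCm38.p6, 250 bases before to 50 after the start) matched 6 of the 10 genes: Acta2, Casq2, Cnn1, Des, Lmod1 and Smtn. Actg2, Myh11, Tagln and Myocd were not matched. An exact CArG box, searched on both strands, was found in 0 of the 6 and in 1.63% of 32851 promoters. With at most 1 G or C allowed among its 6 central bases, it was found in 1 of the 6 (Acta2) and in 9.98% of promoters. The start is the one given by the RefSeq reference and was not measured in these data, so distances from it hold for that annotation only. Acta2 is shown for its 2 such matches, in capitals, at -84 and -34 from that start (chr19:34255324-34255623, minus strand, GRCm38.p6):
Acta2 promoter: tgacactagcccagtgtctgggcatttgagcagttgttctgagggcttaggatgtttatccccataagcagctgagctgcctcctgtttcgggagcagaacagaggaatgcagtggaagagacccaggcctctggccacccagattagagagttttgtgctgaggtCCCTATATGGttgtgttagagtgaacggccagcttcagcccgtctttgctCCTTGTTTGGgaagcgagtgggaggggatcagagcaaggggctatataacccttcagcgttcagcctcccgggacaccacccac
A match describes these letters and is not a measured binding site.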

How the data were processed

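Colon RNA was measured on 4 single-colour Agilent arrays, 1 per group. The deposited scanner files give each spot's intensity after background subtraction and detrending, per the file headers, and the submitters' processing notes name Agilent Feature Extraction 11.5.1.1. In the deposited series table the signal was found to equal this intensity over the 75th percentile of the array. Probe coordinates are mm9, per the file headers. Without controls, an array holds 43020 spots of 39429 probes.

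Control spots and outlier spots (129 to 136 per array) were left out. The log2 intensity was set relative to the array's 75th percentile, and spots of a probe were averaged. A probe was kept if any array measured it well above background (28720 probes), and a gene took its brightest one. Names came from the files and a RefSeq table of GRCm38.p6: 27502 probes were matched by accession, 3549 by their symbol and 404 by a former symbol, while the file's name was kept for 7974. Pairs of arrays were compared without a test. A gene counted as past 2-fold when the higher array was well above background. The additive fit (DSS and genotype) used limma 3.58.1 in R 4.3.3. Tested on simulated data with 22162 genes, it recovered 0% of DSS effects of log2 1, 2% of log2 2, 78% of log2 4 and 92% of log2 6, with 7 false calls. For genotype effects the shares were 0%, 0%, 80% and 94%. The simulated errors were drawn from the variances that limma itself fitted. No simulated DSS response differed between the genotypes, so these shares may not hold for the real arrays. The number of arrays limits the precision.

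The 10 genes, the 4 pathway lists and the 12 marker lists were chosen with earlier results of these data known. All 10 genes are named. Of each pathway list, up to 4 genes on each side by the mean DSS ratio and up to 2 on each side by KO over WT with DSS could be named. The 10 nearest profiles are named too. Alternatives were other scalings, normexp, the series table, kept outlier spots, the mean of probes, other filters and a trended robust fit.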

Additional observations from a re-analysis of the deposited data

Results flagged for a closer look

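Tagln and Cnn1 stood out because their DSS ratios point in opposite directions in the 2 genotypes, a difference that was not tested since each group holds 1 array. For Tagln the log2 ratio of DSS to naive was -0.51 in KO and 0.14 in WT, and for Cnn1 it was -0.76 in KO and 0.037 in WT. The same 2 genes had opposite signs between the treatments: KO over WT was -0.62 with DSS and 0.029 without it for Tagln, and -0.75 with DSS and 0.053 without it for Cnn1. The values of 0.037, 0.029 and 0.053 all lie within spot noise (0.0899). After quantile normalization the wild-type DSS ratios were -0.08 (Tagln) and -0.16 (Cnn1), and KO over WT without DSS was -0.14 (Tagln) and -0.062 (Cnn1), so the opposite directions do not hold under that scaling. Opposite DSS directions were also not particular to these 2 genes. In the scaling used here, 7 of 10 reference genes were below 0 in KO and 1 of 10 in WT (medians -0.14 and 0.36). Of 12 epithelial markers, 11 were below 0 in KO and 4 in WT (medians -0.35 and 0.19).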

How the results depend on the processing

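No paired analysis was possible because each group holds 1 array. No value of the 10 genes' medians or counts reversed, and all 10 genes were lowest in KO DSS under each of the 7 alternatives of scaling, background, source and probe choice. The median KO DSS ratio (-0.85) was -0.73 with normexp and quantile normalization, -0.67 with the mean of a gene's probes and -0.67 without Casq2 and Des, an alternative chosen after seeing the data. The median WT DSS ratio (-0.40) was -0.26 with median scaling, which moved the median of all genes to 0.12, and -0.28 without Casq2 and Des. With median scaling Actg2 stood at 0.024 in WT. The median of KO over WT with DSS (-0.55) was -0.64 with median scaling, -0.42 with quantile normalization, -0.35 with normexp and quantile normalization, and -0.44 with the mean of probes. The median difference of responses (-0.43) was -0.18, -0.12 and -0.28 under the last 3 of these. Genes past 2-fold in KO (4) numbered 2 with median scaling, 2 with quantile normalization, 2 with normexp and the 75th percentile, and 1 with normexp and quantile normalization. In WT (2) they numbered 1 under each of these 4. KO over WT with DSS (0) gave 1 with median scaling. Limma's DSS calls over all genes (0) numbered 144 with normexp and the 75th percentile, 1086 among the genes that every array measured well above background, 13 with no filter and 1532 with a trended robust fit. Its genotype calls (0) numbered 7 with the trended robust fit. The cause of these moves was not tested.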

Other observations

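Other cell types of the muscle coat and its vessels also differed between the pools. These markers were picked out after their values were seen. Ano1, the chloride channel that marks the interstitial cells of Cajal (the pacemaker cells of gut muscle), had a relative signal of 6.99 in KO DSS and 17.3 in KO naive, and 9.55 in WT DSS and 17.2 in WT naive. Kit, the receptor these cells need, had DSS log2 ratios of -0.76 in KO and -0.85 in WT, while Etv1, their transcription factor, had 0.06 in KO and -0.37 in WT. The 7 pericyte markers had a median DSS ratio of 0.27 in KO and -0.18 in WT. Among them Kcnj8, a potassium channel subunit, stood at 2.76 in KO and 1.20 in WT, and Cspg4 at -0.94 in KO and -1.42 in WT.

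The remaining lists had these median DSS ratios. Heart muscle markers stood at -0.39 in KO and -0.22 in WT, and endothelial markers at 0.98 in KO and -0.22 in WT. Epithelial markers stood at -0.35 in KO and 0.19 in WT, where the sign turned with the scaling, and leukocyte markers at 1.21 in KO and 0.49 in WT. Enteric neuron and glia markers stood at 0.12 in KO and -0.20 in WT. Fat cell markers stood at 1.79 in KO and 2.87 in WT, and pancreatic acinar markers at 4.68 in KO and 6.80 in WT, although only 3 of the 9 pancreatic genes were well above background on all 4 arrays. Reference genes stood at -0.14 in KO, where the sign turned to 0.06 with the mean of probes, and 0.36 in WT.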
